A study of Mus musculus with 24 samples.

Results

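Sulf1, Sulf2, Loxl1, Lox, Tgfbi, Lum, Dcn, Ogn, Bgn and Fmod code for enzymes and proteoglycans that build or remodel the extracellular matrix. They were taken by name from the array's gene column, as 10 of 36163 named genes and 13 of 55681 probesets (a probeset is 1 probe, with its spots averaged). Sulf1, Loxl1 and Lox had more than 1 probeset each, and all were kept. They were chosen by differences between these groups that were already known from the same arrays, so their group differences are given as a description with no test.

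The sulfatases Sulf1 and Sulf2 act outside the cell and remove sulfate groups from heparan sulfate, which changes how the sugar chain holds growth factors. Lox and Loxl1 are lysyl oxidases that crosslink collagen and elastin, and Tgfbi is a secreted fasciclin-domain protein that binds collagens and integrins. Lum, Dcn, Ogn, Bgn and Fmod are small leucine-rich proteoglycans, which bind collagen fibrils and set their spacing and which, in brain, are made largely by cells of the meninges and vessels.

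The study asked how morphine given with stress changes hippocampal mRNA in newborn mice. Male C57BL/6 pups were treated from P5 (postnatal day 5) and killed on P9. The MS2 and MS5 groups received morphine at 2 or 5 mg/kg, injected under the skin, together with daily maternal separation and episodes of apnea, while the control (Con) group was left untreated. Each group had 5 arrays, each from the pooled left and right hippocampi of 1 pup. No group received morphine alone or stress alone, so morphine and the stress protocol cannot be told apart in a contrast with Con. In MS5 versus MS2 the stress protocol was shared. Litters were not labelled.

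Levels are log2 of the background-adjusted, quantile-normalized spot signal, and 1 unit is a doubling. The arrays lay on 2 slides, each holding all 3 groups. The median spot signal was 100 to 128 on 14 arrays and 51 on MS2 replicate 5. The list of hippocampal neuron markers had a mean level of 11.98 to 12.48 on 14 arrays but 10.40 on MS2 replicate 4. There the thalamus and hypothalamus list stood at 10.88 against 8.53 to 10.43 elsewhere. On Con arrays that list was 8.53 to 9.31. MS5 replicates 8, 12 and 14 also stood above this, at 10.43, 9.76 and 10.09. MS5 replicates 9 and 13 lay inside the Con range, at 8.73 and 9.30. MS5 replicate 9 carried Xist, a transcript of the inactive X chromosome, at 11.34, with 5.89 to 6.08 elsewhere, which goes against its label of male.

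All 10 genes gave signal in the hippocampal samples. Of the 13 probesets, 12 were well above background on all 15 arrays, and the Lox probeset A_55_P2032678 missed that mark on MS2 replicate 5 alone. Spread between arrays of the same group was large for most of them. The SD within groups was 0.77 for Dcn and 0.67 for Sulf1 (A_51_P142744) against a median of 0.11 over all probesets, which placed them at percentiles 99.5 and 99.3. Sulf2 and the Lox probeset A_55_P2032678 varied least, with SDs of 0.15 and 0.13. This Lox probeset stood near the floor, at 6.11 to 6.51. The hypothalamus marker Otp, well above background on no array, had a mean of 6.01.

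**Figure D1:**
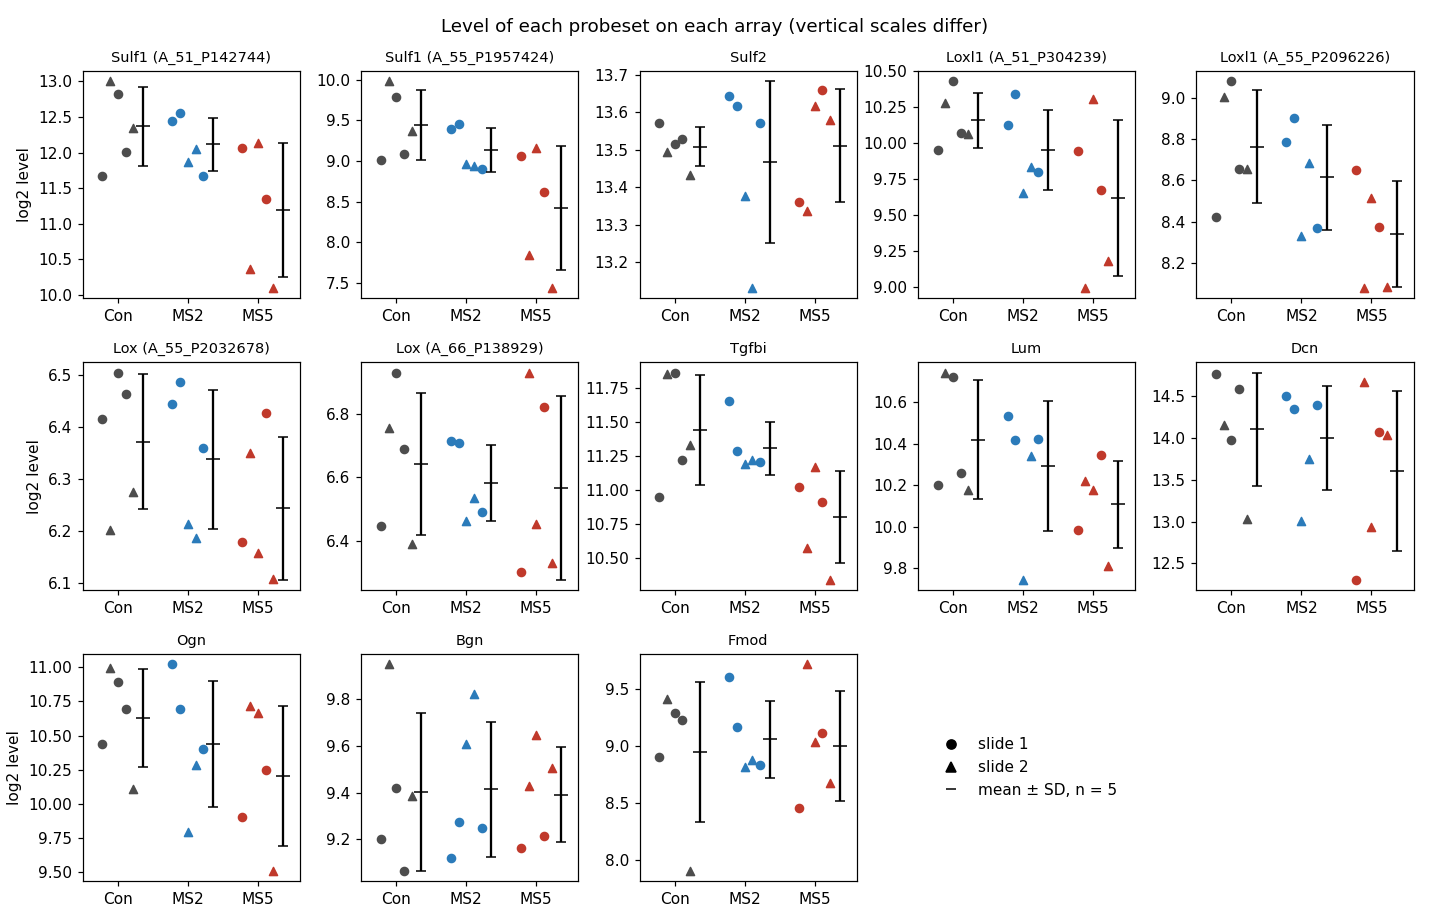
Log2 level of the 13 probesets (1 panel each, vertical scales differ) on each array of Con, MS2 and MS5, with circles for slide 1, triangles for slide 2, and bars for the group mean ± SD (n = 5). The low MS5 points of Sulf1 are replicates 9 and 14, at 10.36 and 10.09 for A_51_P142744, and Bgn is higher on slide 2 in every group.

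Sulf1 was lower in the MS5 group on both of its probesets. With A_51_P142744, its level on Con replicates 15 to 19 was 11.67, 13.005, 12.82, 12.01 and 12.34. On MS2 replicates 1, 3, 4, 5 and 7 it was 12.44, 12.56, 11.87, 12.05 and 11.67. On MS5 replicates 8, 9, 12, 13 and 14 it was 12.06, 10.36, 12.13, 11.34 and 10.09. Replicates 9 and 14 were the lowest of all 15 arrays, replicate 13 was also below every Con array, and replicates 8 and 12 lay inside the Con range. The mean was 12.37 ± 0.56 in Con, 12.12 ± 0.37 in MS2 and 11.20 ± 0.94 in MS5 (SD, n = 5). The MS5 minus Con difference was -1.17 (SE 0.38), or 2.25-fold lower, and the MS2 minus Con difference was -0.25 (SE 0.38). The second probeset, A_55_P1957424, gave -1.03 (SE 0.30) and -0.31 (SE 0.30). Against MS2 the MS5 level differed by -0.92 (SE 0.38) and -0.71 (SE 0.30) on these probesets.

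Both Sulf1 probes are shown because they lie at different places in the gene and gave nearly the same pattern over the arrays. The first 30 of 60 bases of each are printed from the array files, with mm9 coordinates of the stretch and no capitals.
Sulf1 A_51_P142744, chr1:12850302-12850331 (+): atcacatattgtttagcgtacgcttttccc
Sulf1 A_55_P1957424, chr1:12849507-12849536 (+): aaggatgcttttgaagatcaattgcgtcct
Within groups the levels at these probes had r = 0.99 over 15 arrays, given as a description since the probes share the arrays and the gene. The figures were 0.83 for the Loxl1 pair and 0.67 for the Lox pair.

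Without MS5 replicate 9, the array with Xist, the Sulf1 difference from Con was -0.96 on A_51_P142744 and without replicate 14 it was -0.90. Without both, a choice made after seeing the data, it was -0.53. Within slide 1, which held MS5 replicates 8 and 13, the difference was -0.47, and within slide 2, which held replicates 9, 12 and 14, it was -1.81. Against MS2 the differences without both were -0.27 and -0.19. The direction was the same in each of these, and the size depended on replicates 9 and 14.

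Tgfbi was lower in MS5 by a smaller amount and with less spread. Its level was 10.95, 11.86, 11.87, 11.22 and 11.34 on Con replicates 15 to 19, and 11.65, 11.29, 11.19, 11.22 and 11.21 on MS2 replicates 1, 3, 4, 5 and 7. On MS5 replicates 8, 9, 12, 13 and 14 it was 11.02, 10.58, 11.17, 10.92 and 10.34. All 5 MS5 values lay below all 5 MS2 values, as at 0.384% of all probesets, whereas Con replicate 15 lay inside the MS5 range. The difference from Con was -0.64 (SE 0.19), or 1.56-fold lower, and the difference from MS2 was -0.51 (SE 0.19). Without MS5 replicate 9 the difference from Con was -0.58, without replicate 14 it was -0.53, and without both it was -0.41. Within slide 1 and slide 2 it was -0.38 and -0.90.

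Loxl1 had its lowest levels on the same MS5 arrays as Sulf1. With A_51_P304239 the Con arrays held 9.95, 10.28, 10.43, 10.07 and 10.06, the MS2 arrays 10.13, 10.34, 9.65, 9.83 and 9.80, and the MS5 arrays 9.95, 8.99, 10.31, 9.68 and 9.18, in the replicate order given for Sulf1. MS5 replicates 9 and 14 were again the lowest of all 15, and MS5 replicate 12 was above 4 of the 5 Con arrays. The MS5 minus Con difference was -0.54 (SE 0.21) with this probeset and -0.42 (SE 0.15) with A_55_P2096226, both under 1.5-fold. Without MS5 replicates 9 and 14 the differences were -0.18 and -0.25. The study itself listed Loxl1 as lower in MS5 than in control by more than 1.5-fold, a larger difference than found here with either probeset. The cause of this gap was not tested.

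Its family member Lox stood at 6.11 to 6.51 with A_55_P2032678 and 6.30 to 6.93 with A_66_P138929. The MS5 minus Con differences were -0.13 (SE 0.08) and -0.08 (SE 0.13), and the ranges of the 3 groups overlapped. From processed scanner values, scaled per array at percentile 75, the first of these was -0.46, and at a background offset of 0 it was -0.36. The processed values differ in both background and scaling, and the cause was not tested.

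Sulf2, the second extracellular sulfatase, had nearly equal group means. It stood at 13.43 to 13.57 in Con, 13.13 to 13.64 in MS2 and 13.34 to 13.66 in MS5. MS5 differed from Con by 0.00 (SE 0.09, 95% interval -0.19 to 0.20) and the MS2 minus Con difference was -0.04 (SE 0.09).

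Dcn varied more between arrays than between groups. This proteoglycan binds collagen and TGF-beta. Its level was 14.77, 14.16, 13.97, 14.59 and 13.03 on Con replicates 15 to 19. It was 14.50, 14.34, 13.01, 13.75 and 14.40 on MS2 replicates 1, 3, 4, 5 and 7, and 12.31, 14.67, 12.93, 14.08 and 14.04 on MS5 replicates 8, 9, 12, 13 and 14. A low array, at 13.03 or under, was found in every group, and MS5 replicate 9, among the lowest for Sulf1, was the highest MS5 array for Dcn. MS5 differed from Con by -0.50 (SE 0.44), and by -1.25 within slide 1 and 0.29 within slide 2. The difference was -0.17 without MS5 replicate 8 and -0.77 without MS5 replicate 9.

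Fmod, which guides collagen fibril assembly, had group means within 0.11 of each other. The Con arrays held 8.90, 9.41, 9.29, 9.22 and 7.90, with replicate 19 the lowest of all 15 arrays. The MS2 arrays held 9.60, 9.17, 8.81, 8.87 and 8.83, and the MS5 arrays 8.45, 9.71, 9.03, 9.11 and 8.67. MS5 replicates 8 and 14 were the lowest of their group and replicate 9 was the highest array of all. Between MS5 and Con the difference was 0.05 (SE 0.28), and -0.36 within slide 1 against 0.48 within slide 2. It was -0.13 without MS5 replicate 9.

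Lum and Ogn, further members of the collagen-binding proteoglycans, differed in MS5 by less than 2 SE. Lum stood at 10.17 to 10.74 in Con, 9.74 to 10.53 in MS2 and 9.81 to 10.34 in MS5, with an MS5 minus Con difference of -0.31 (SE 0.16). Ogn stood at 10.11 to 10.995 in Con, 9.79 to 11.02 in MS2 and 9.51 to 10.71 in MS5, with a difference of -0.42 (SE 0.26). For both genes the groups overlapped. MS2 replicate 4 was the lowest MS2 array for Lum, Ogn and Dcn, and without it the MS2 minus Con difference was 0.01 in place of -0.13 for Lum, -0.03 in place of -0.19 for Ogn and 0.14 in place of -0.10 for Dcn.

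Bgn, a proteoglycan coded on the X chromosome, differed with the slide, and its group means were close. The MS5 minus Con difference was -0.01 (SE 0.16, 95% interval -0.36 to 0.34). The 8 arrays of slide 1 held 9.06 to 9.42 and the 7 arrays of slide 2 held 9.38 to 9.95. Slide 2 was higher by 0.43 (SE 0.08), with an adjusted p of 0.0116 from limma over all probesets with the groups in the fit. Bgn was the single one of the 13 probesets with an adjusted p under 0.05 for the slide, against 3.68% of all probesets.

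Counted over the 13 probesets, 11 were lower in MS5 than in Con, with a median difference of -0.42. Over all probesets the median was 0.00 and 49.8% were lower. The study's limits, a fold change over 1.5 and an unadjusted p below 0.05, were passed here by 3 of the 13. These were both Sulf1 probesets and Tgfbi, where 0.183% of all probesets passed in the lower direction. Nothing is read from this count because the contrast was used in the choice. The study, which counted fewer probesets, also listed Loxl1 and gave larger differences for Sulf1, Loxl1 and Tgfbi than those found here. At no member probeset did every MS5 array lie below every Con array, as happened at 0.526% of all probesets. In MS2 versus Con 11 were lower with a median of -0.13, where 51.1% of all probesets were lower, and 0 passed the limits, where 0.0233% of all probesets passed in either direction. In MS5 versus MS2 12 were lower with a median of -0.23, where 49.3% of all were lower. Here 2 passed, both of Sulf1, where 0.111% of all passed in the lower direction, and neither passed without MS2 replicate 1, MS2 replicate 3, MS5 replicate 9 or MS5 replicate 14, or within either slide. These contrasts share arrays.

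No probeset on the array reached an adjusted p under 0.05 with limma in any of the 3 contrasts. The smallest was 0.629 in MS5 versus Con, 0.97 in MS2 versus Con and 1 in MS5 versus MS2, while 2176, 2324 and 2211 probesets had an unadjusted p under 0.05.

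**Figure D2:**
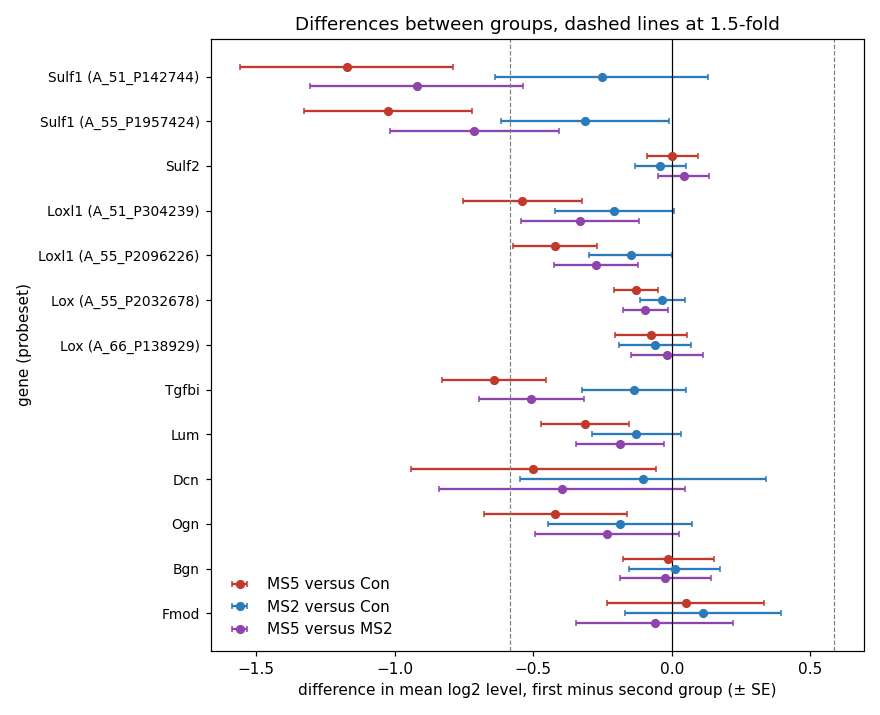
Difference in mean log2 level (± SE) of each probeset in MS5 versus Con, MS2 versus Con and MS5 versus MS2, 5 arrays a group, with dashed lines at 1.5-fold. Sulf1 at -1.17 and -1.03 and Tgfbi at -0.64 lie past the line in MS5 versus Con, and Sulf2, Bgn and Fmod lie near 0.

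The spread of the 10 genes within groups was not itself a criterion of the choice, and its relation to marker lists was tested. It was not independent of the choice. Low values of Sulf1, Loxl1 and Tgfbi on MS5 replicates 9 and 14 enter both the spread and the group differences. The lists too were chosen with earlier results of these data known, and the p-values below carry these limits. For each array, the deviation of a gene from its group mean was set against that of the mean level of a marker list, for 2 lists, choroid plexus epithelium (27 genes) and meningeal and perivascular fibroblasts (26 genes), with no member in either list. The p is from a two-sided permutation test of 100000 shuffles within groups and was adjusted over the 20 relations. The smallest p the shuffles can give is 1e-05.

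Of the 2 lists, Sulf1, Loxl1 and Tgfbi followed that of choroid plexus. Sulf1 had r = 0.97 (rho = 0.96, permutation p = 1e-05, adjusted p = 6.67e-05) over the 15 arrays. Loxl1 had r = 0.91 (rho = 0.91, permutation p = 0.00033, adjusted p = 0.00132) and Tgfbi r = 0.84 (rho = 0.88, permutation p = 1e-05, adjusted p = 6.67e-05). Without MS5 replicates 12 and 14, the arrays whose list deviation from the group mean lay farthest from the median, r was 0.98, 0.95 and 0.80. Within slide 1 it was 0.999, 0.97 and 0.83, and within slide 2 0.98, 0.92 and 0.93. Without MS5 replicate 9 and MS2 replicate 4 it was 0.96, 0.92 and 0.83. Without MS5 replicates 9 and 14 together, the arrays with the lowest list level and a choice made after seeing the data, it was 0.98, 0.90 and 0.86, with adjusted p = 3e-04, 0.000533 and 0.00152 (permutation).

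The other 7 genes had choroid plexus relations that did not pass, from r = -0.48 for Dcn (adjusted p = 0.305, permutation) to 0.46 for Lum (adjusted p = 0.108, permutation). Without MS5 replicate 9 Lum and Ogn also passed, at r = 0.55 (adjusted p = 0.0353, permutation) and 0.68 (adjusted p = 0.0253, permutation). Lum also passed without MS5 replicate 8, at 0.57 (adjusted p = 0.0324, permutation), and Ogn without MS5 replicate 9 and MS2 replicate 4, at 0.70 (adjusted p = 0.047, permutation).

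Fmod, Ogn, Lox, Lum and Dcn followed the fibroblast list. Fmod had r = 0.96 (rho = 0.95, permutation p = 1e-05, adjusted p = 6.67e-05), which stayed at 0.91 without Con replicate 19 and MS5 replicate 8, the arrays whose deviation in this list lay farthest from the median. Ogn had r = 0.84 (rho = 0.86, permutation p = 0.00018, adjusted p = 9e-04), Lox (A_66_P138929) r = 0.79 (rho = 0.85, permutation p = 0.00157, adjusted p = 0.00523) and Lum r = 0.68 (rho = 0.76, permutation p = 0.00581, adjusted p = 0.0166). Without the same arrays these were 0.88, 0.75 and 0.72. Within slide 1 and slide 2 the values were 0.95 and 0.98 for Fmod, 0.83 and 0.83 for Ogn, 0.80 and 0.81 for Lox, and 0.54 and 0.79 for Lum. Lum lost the call without Con replicate 16, at r = 0.63 (adjusted p = 0.0692, permutation). The relation of the other Lox probeset, A_55_P2032678, was not tested, and the 2 Lox probesets had r = 0.67 with each other within groups. Both were dim, at 6.93 or under on every array.

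The relation of Dcn rested on few arrays. It had r = 0.67 (rho = 0.61, permutation p = 0.013, adjusted p = 0.0325), with 0.69 on slide 1 and 0.56 on slide 2. The rho alone did not pass (adjusted p = 0.0777, permutation). Without Con replicate 19 and MS5 replicate 8 it was 0.38 (adjusted p = 0.445, permutation), and without MS5 replicate 9 and MS2 replicate 4 it was 0.60 (adjusted p = 0.11, permutation). Leaving out any 1 of Con replicates 18 and 19, MS2 replicates 1 and 4 and MS5 replicates 8, 9 and 13 also ended the call, with the lowest r, 0.56 (adjusted p = 0.224, permutation), without Con replicate 19.

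Sulf1, Loxl1 and Tgfbi had r = 0.15, 0.15 and 0.35 with the fibroblast list, with adjusted p = 0.817, 0.817 and 0.463 (permutation). Sulf2 had r = 0.13 with the choroid plexus list and 0.36 with the fibroblast list (adjusted p = 0.817 and 0.272, permutation). The second of these passed without MS5 replicate 9, at 0.54 (adjusted p = 0.0307, permutation), without MS5 replicate 9 and MS2 replicate 4, at 0.51 (adjusted p = 0.0393, permutation), and without MS5 replicates 9 and 14, at 0.56 (adjusted p = 0.0347, permutation). Bgn had 0.03 and 0.02. With slide means also removed the values for Bgn were 0.45 and 0.41, neither of which passed (adjusted p = 0.141 and 0.386, permutation). That 1 gene passed for a list and another did not was not tested as a difference.

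**Figure D3:**
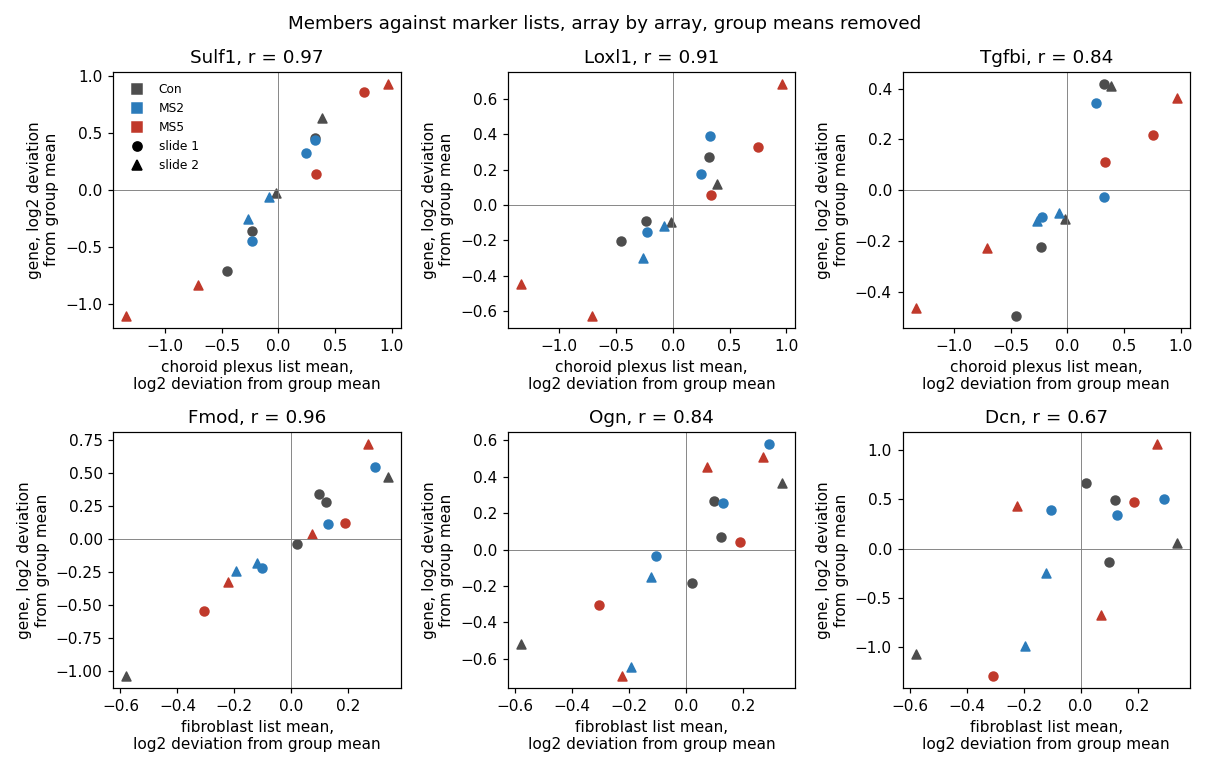
Deviation of a gene from its group mean against that of the marker list (both log2), 1 point per array, coloured by group, with circles for slide 1 and triangles for slide 2. The top row shows Sulf1, Loxl1 and Tgfbi against the choroid plexus list (r = 0.97, 0.91 and 0.84) and the bottom row Fmod, Ogn and Dcn against the fibroblast list (r = 0.96, 0.84 and 0.67).

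Among the genes themselves the same groups stood out. The 3 pairs among Sulf1, Loxl1 and Tgfbi had r = 0.76 to 0.91 within groups, and the 10 pairs among Lox, Lum, Dcn, Ogn and Fmod had r = 0.39 to 0.83 with a median of 0.69. The 15 pairs between them had r = -0.53 (Sulf1 with Dcn) to 0.65 (Tgfbi with Lum). These sets were formed after the values were seen and share the 15 arrays, so the correlations carry no test. Dcn and Lum are neighbours on chromosome 10, and Lum is followed by the related Kera and Epyc. Dcn and Lum had r = 0.39, lower than Ogn with Lum at 0.82 or Ogn with Fmod at 0.82, whose genes lie on different chromosomes.

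**Figure D4:**
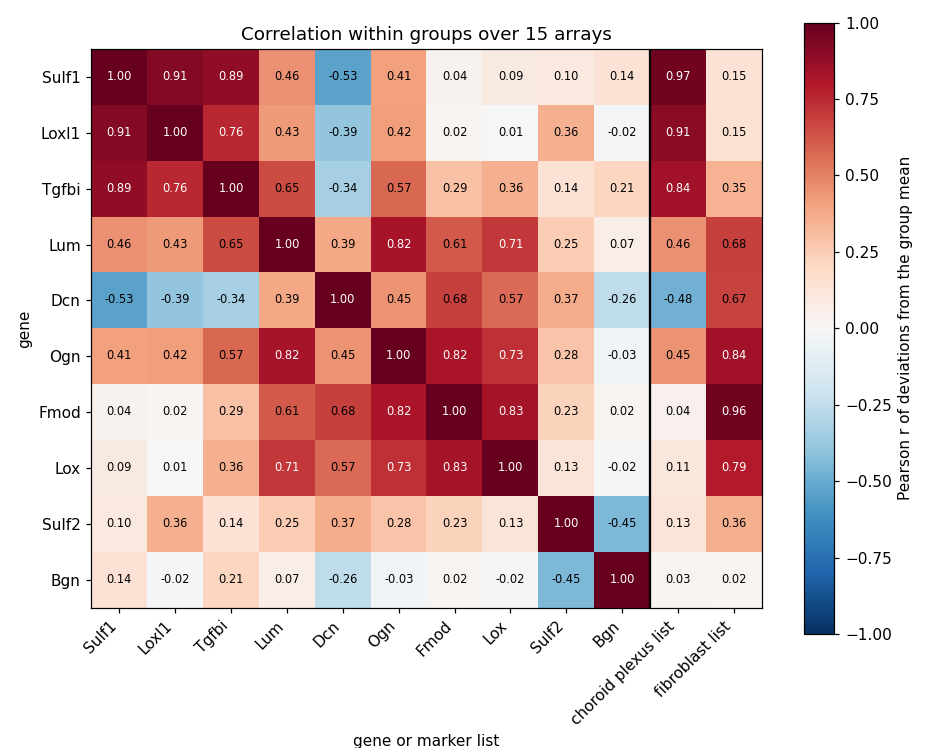
Pearson r within groups over the 15 arrays between the 10 genes, and with the 2 marker lists to the right of the black line. Sulf1, Loxl1 and Tgfbi form a block with the choroid plexus list, and Lum, Dcn, Ogn, Fmod and Lox form a looser block with the fibroblast list.

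RefSeq promoter windows (GRCm38.p6, 250 bases before to 50 after the start) were held for 5 of the 10 genes, Sulf2, Tgfbi, Ogn, Bgn and Fmod. The windows of Tgfbi, which followed the choroid plexus list, and of Ogn and Fmod, which followed the fibroblast list, are shown so that the letters upstream of genes that varied together can be compared. Capitals mark matches, on either strand, to the TATA box TATAAA, to the core of the Sp1 motif, GGGCGG, to the core of the Smad motif, CAGACA, and to the core of the Otx2 motif, TAATCC.
Tgfbi promoter, chr13:56609336-56609635 (+): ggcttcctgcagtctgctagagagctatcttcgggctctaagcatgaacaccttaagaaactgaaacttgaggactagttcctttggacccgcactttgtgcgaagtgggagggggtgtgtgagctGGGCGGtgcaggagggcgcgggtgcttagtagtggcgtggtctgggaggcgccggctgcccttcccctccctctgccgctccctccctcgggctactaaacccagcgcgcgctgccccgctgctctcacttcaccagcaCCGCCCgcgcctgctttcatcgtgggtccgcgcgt
Ogn promoter, chr13:49607765-49608064 (+): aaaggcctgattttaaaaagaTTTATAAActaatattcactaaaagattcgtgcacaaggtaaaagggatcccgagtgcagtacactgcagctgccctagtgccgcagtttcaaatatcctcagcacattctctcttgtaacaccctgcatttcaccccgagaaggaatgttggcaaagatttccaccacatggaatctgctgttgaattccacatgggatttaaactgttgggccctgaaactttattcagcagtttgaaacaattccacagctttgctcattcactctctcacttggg
Fmod promoter, chr1:134037004-134037303 (+): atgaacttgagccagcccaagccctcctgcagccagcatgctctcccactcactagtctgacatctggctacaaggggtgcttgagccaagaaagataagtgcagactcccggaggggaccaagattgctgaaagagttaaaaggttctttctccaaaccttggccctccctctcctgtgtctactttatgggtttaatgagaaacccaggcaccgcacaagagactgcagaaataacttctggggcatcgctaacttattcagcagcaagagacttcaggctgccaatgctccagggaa
The Tgfbi window held 2 matches to GGGCGG, from -124 to -119 and from 15 to 20, counted from 0 at the start. The Ogn window held 2 overlapping matches to TATAAA, within -229 to -222, and the Fmod window held no match to the motifs. Over all 32851 windows of this length, 13.6% held the TATA box, 35.7% the Sp1 core, 21% the Smad core and 7.06% the Otx2 core. GC content was 63.3% for Tgfbi, 42.3% for Ogn and 51% for Fmod, against a median of 52.7% over all windows. The matches describe these letters and were not tied to the levels.

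The choroid plexus list itself moved with the MS5 group. All 27 of its genes were lower in MS5 than in Con, with a median of -1.17, and 23 passed the study's limits. Over all 36163 genes, 50.4% were lower and 78 passed in the lower direction. The list was chosen with earlier results of these data known, so nothing is read from its count. Its mean level was 10.78 to 11.62 on Con arrays, 10.77 to 11.36 on MS2 arrays, and 10.90, 9.43, 11.11, 10.48 and 8.81 on MS5 replicates 8, 9, 12, 13 and 14, so that the arrays lowest for Sulf1 were lowest for the list. All 27 markers were well above background in at least 1 group. Of the most abundant, Ttr, the thyroxine carrier of cerebrospinal fluid, was 17.95 ± 0.20 in Con and 16.41 ± 2.16 in MS5, Enpp2, which makes lysophosphatidic acid, differed by -1.11, and Car12, a carbonic anhydrase, by -0.79. The largest differences were -1.72 for Kcne2, -1.58 for Trpm3 and -1.56 for Kcnj13, all genes of ion channels. In MS2 versus Con the median was -0.21 and 0 of 27 passed. In bulk tissue fewer cells of a type and less RNA per cell cannot be told apart, and the part of choroid plexus content in the lower Sulf1, Loxl1 and Tgfbi was not tested.

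The fibroblast list moved less with the group. In MS5 versus Con 22 of its 26 genes were lower, with a median of -0.13, and 0 passed the limits, and in MS2 versus Con 12 were lower with a median of 0.02. Its mean level was 9.77 to 10.69 in Con, 10.17 to 10.65 in MS2 and 9.92 to 10.49 in MS5, lowest on Con replicate 19, MS5 replicate 8 and MS5 replicate 14. Among its abundant genes the MS5 minus Con difference was -0.20 for the collagen gene Col1a2, -0.19 for the laminin gene Lamb1 and -0.11 for Col1a1, and the largest were -0.48 for the basement membrane gene Nid2, -0.26 for Islr and -0.24 for Pdgfrl. The part of this list in the levels of Fmod, Ogn, Lox, Lum and Dcn was not tested beyond the relations above. Of the other cell types the median MS5 minus Con difference was -0.38 for ependymal cells (11 of 11 lower), -0.36 for blood, -0.16 for hippocampal neurons, -0.08 for endothelium, -0.04 for mural cells, 0.02 for astrocytes, 0.04 for microglia, 0.16 for the oligodendrocyte lineage and 0.33 for thalamus and hypothalamus. Among MS5 arrays the mean level of the ependymal list was also lowest on replicates 9 and 14, at 9.30 and 9.62. It was 9.87 or more on the other MS5 arrays. The relation of this list to Sulf1, Loxl1 and Tgfbi was not tested.

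Other genes of the same matrix pathways were counted in MS5 versus Con, where 50.4% of all 36163 genes were lower and 78 passed in that direction. Of 13 other small leucine-rich proteoglycans 9 were lower, with a median of -0.03 and 0 past the limits. All 3 other lysyl oxidases were lower, with a median of -0.15, led by Loxl2 at -0.41 (SE 0.12), and of 3 other fasciclin-domain genes 2 were lower, with Postn at -0.35. Of 23 genes that make or modify heparan sulfate, the substrate of the sulfatases, 13 were lower with a median of 0.00, and Hs3st5 and Hpse stood higher by 0.68 (SE 0.51) and 0.54 (SE 0.41). Of 12 heparan sulfate proteoglycan cores 9 were lower with a median of -0.10. Of 16 genes of elastic fibres and microfibrils 15 were lower, with a median of -0.19. Among them Eln, the gene of elastin, which Loxl1 crosslinks, stood at -0.46 (SE 0.36) and the fibrillin gene Fbn1 at -0.43 (SE 0.14). None of these lists had a gene past the limits in either direction in any of the 3 contrasts. Of 8 procollagen processing genes 6 were lower with a median of -0.03, and 1 passed, Pcolce2, which enhances the cleavage of procollagen, at 10.24 ± 0.29 in Con and 9.60 ± 0.41 in MS5 (difference -0.64, SE 0.17).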

How the data were processed

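Hippocampal mRNA of 15 pups was measured on 1-colour Agilent arrays, and 9 miR arrays were not used here. The authors deposited the scanner intensity of each spot (Agilent Feature Extraction 10.7.1.1, probe coordinates mm9) and a table of log2 values that they had background adjusted with normexp and quantile normalized. The log2 values made here differed from the authors' by at most 5e-09 at the member probesets.

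R 4.3.3 with limma 3.58.1 was used. Mean spot signal was adjusted for median local background (normexp, offset 50), quantile normalized over 62976 spots and log2 transformed, 3671 control spots were dropped, and spots of 1 probe were averaged. limma (lmFit, eBayes) was fitted once with 3 groups, with Benjamini-Hochberg adjustment over 55681 probesets. The study's limits were a fold change over 1.5 and an unadjusted p below 0.05. The number of arrays limited the precision. A listed gene stood by 1 probeset, named A_51 or A_52 where it had one, then the brightest. The steps were tested on simulated data.

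The members and lists were chosen with earlier results of these data known. Named were every member, other matrix genes past the limits, the 3 highest and the 3 most changed genes of each described marker list, Xist and the neuron list. Loxl2, Postn, Hs3st5, Hpse, Eln and Fbn1 were named after their values were seen. The alternatives were an offset of 0, processed scanner values scaled per array at percentile 75, array weights, a filter on dim probes, slide as a block, each slide alone, the authors' table, only the groups compared, outlier spots left out, the brightest probeset, Spearman in place of Pearson, slide means removed, and leaving out arrays.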

Additional observations from a re-analysis of the deposited data

Results flagged for a closer look

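Of 75 groups of 5 arrays examined, 39 of them for the member probesets, 7 had an array set apart from the other 4 of its group by Dixon's test. Chance gives such an array in about 1 of 20 groups. Tgfbi stood at 11.65 on MS2 replicate 1 against 11.19 to 11.29 on the other MS2 arrays. Lum stood at 9.745 on MS2 replicate 4 against 10.34 to 10.53. On the same array the hippocampal neuron list had a mean of 10.4 against 12.34 to 12.45 and the thalamus and hypothalamus list a mean of 10.88 against 8.698 to 9.163. The hippocampal neuron list stood at 11.98 on MS5 replicate 8 against 12.22 to 12.3. Xist stood at 11.34 on MS5 replicate 9 against 5.895 to 6.054, and at 6.078 on Con replicate 19 against 5.931 to 5.973.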

How the results depend on the processing

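The count of member probesets past the limits in MS5 versus Con was 3 and ranged from 2 to 4 when 1 array was left out, with Tgfbi lost without Con replicate 16 or 17 or MS5 replicate 9 or 14. The count was 4 with array weights and 4 within slide 2, and in both Loxl1 passed beside Sulf1 and Tgfbi. It was 0 without both MS5 replicates 9 and 14, a choice made after seeing the data. In MS5 versus MS2 the count was 2, and it was 0 within slide 2 and 0 without both of those arrays. With array weights it was 3, where Tgfbi passed beside Sulf1. With 1 array left out it ranged from 0 to 3, and it was 0 without MS2 replicate 1, MS2 replicate 3, MS5 replicate 9 or MS5 replicate 14. In MS2 versus Con it was 0 in every alternative run. Within slide 1, Dcn and Ogn passed in MS5 versus Con and in MS5 versus MS2, and Sulf1 and Tgfbi passed in neither. Leaving out MS5 replicate 9 and 14 together, the number of members that varied with the fibroblast list was 6 in place of 5. The number of members that varied with the choroid plexus list was 3, and 3 to 5 with 1 array left out, with 5 without MS5 replicate 9. No call changed direction. Over all probesets 127 passed in MS5 versus Con (102 lower), 13 in MS2 versus Con (4 lower) and 72 in MS5 versus MS2 (62 lower), against 624 (327 lower), 523 (165 lower) and 593 (407 lower) with processed scanner values and 401 (269 lower), 230 (102 lower) and 370 (269 lower) at an offset of 0. With 1 array left out these counts ranged from 61 to 213, 7 to 38 and 15 to 106. The differences of Dcn and Fmod between MS5 and Con had opposite signs on the 2 slides. Signal limited the Lox probeset A_55_P2032678, which was not well above background on MS2 replicate 5. No paired analysis was possible because litters were not labelled, and the treatment groups share no replicate numbers.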
